A study of Mus musculus with 21 samples.

Results

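The genes described are *Osm*, *Lif*, *Il10* and *Il24*, which encode the cytokines oncostatin M, leukaemia inhibitory factor (LIF), interleukin 10 and interleukin 24. They were taken by gene symbol from the deposited expression table and are 4 of the 19505 genes in it. Each of them has 1 transcript cluster, the set of probes that reads a gene on these arrays, so no choice between clusters was needed. The genes were chosen by their family, with the differences between AML, DC and fresh medium on these same arrays already known. The levels and differences of the 4 genes are therefore a description, and their p-values are no independent evidence.

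The samples were splenic CD8+ T cells of wildtype mice, in 3 groups of 7 biological replicates. All T cells had been activated with beads that bind CD3 and CD28, and after 48 h in the medium the CD8+ cells were purified a second time, by magnetic separation. The first group was kept in filtered supernatant of WEHI 3B cells, a mouse myelomonocytic leukaemia line that stands for acute myeloid leukaemia here (AML medium). The second was kept in supernatant of dendritic cells derived from bone marrow (DC medium), and the third, the control, in fresh medium. The AML medium thus came from 1 cell line, and all groups carried the same bead activation. Replicates are numbered 1 to 7 within a medium, and whether equal numbers share a mouse or a day is not stated. Where they do not mark separate animals, the p-values measure only the spread between these samples. A further label field names CXCL12-abundant reticular cells in place of T cells. The T cell genes *Cd3e*, *Cd8a* and *Cd8b1* had mean log2 levels between 11.67 and 11.91 in the 3 groups, and none of the 3 differed between AML and fresh medium in the limma fit (0 at an unadjusted p under 0.05). The number of arrays limits the precision of every value.

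Oncostatin M and LIF belong to the IL-6 family, whose receptors share the signalling chain gp130. Oncostatin M acts in the mouse mainly through a receptor made of its own chain OSMR and gp130, and LIF through LIFR and gp130. IL-10 and IL-24 belong to the IL-10 family. IL-10 binds a receptor of the chains IL10RA and IL10RB and restrains immune responses, and IL-24 uses IL20RB together with IL20RA or IL22RA1. All 4 cytokines signal through JAK kinases to the transcription factor STAT3, which induces the feedback inhibitor SOCS3. The genes lie in pairs: *Osm* and *Lif* are neighbours on chromosome 11, and *Il10* and *Il24* lie in 1 cluster of cytokine genes on chromosome 1.

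*Osm*, *Lif* and *Il24* were higher in AML medium than in fresh and in DC medium, by 1.81-fold to 3.02-fold, and *Il10* did not pass in any comparison. The limma fit called 3 of the 4 genes higher in AML than in fresh medium at an adjusted p under 0.05. An unadjusted p under 0.05 was found for 3100 of the 19505 genes, which is the background for the counts at that level given for gene lists. Of all genes tested, 1.30% were called higher in that comparison, 1.48% lower and 2.77% in either direction, and since the genes were chosen on this comparison nothing is read from their share. In bulk RNA, a change in the number of cells that make a transcript and a change in the RNA made per cell cannot be told apart.

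*Osm* encodes a cytokine released by activated T cells and myeloid cells. Its log2 values were 8.30, 8.31, 7.64, 7.55, 7.99, 7.18 and 7.16 in AML replicates 1 to 7, 6.70, 6.51, 6.60, 6.62, 7.05, 7.44 and 7.23 in DC replicates 1 to 7, and 6.63, 6.50, 6.20, 6.49, 6.57, 7.16 and 7.68 in fresh replicates 1 to 7. AML replicates 1, 2 and 5 lay above all 14 other arrays, while AML replicates 3, 4, 6 and 7 lay within the fresh range, and the highest fresh array was replicate 7. The mean was 7.74 ± 0.48 in AML medium and 6.75 ± 0.50 in fresh medium (SD, n = 7 each). The log2 difference was 0.99 (SE 0.21, 95% interval 0.55 to 1.43, 1.98-fold, limma adjusted p = 0.0126).

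*Lif* encodes a cytokine best known for keeping mouse embryonic stem cells undifferentiated, which activated T cells also make. Its log2 values were 8.97, 8.97, 8.60, 9.22, 9.75, 8.09 and 8.25 in AML replicates 1 to 7, 6.67, 6.81, 6.60, 7.48, 7.75, 8.41 and 8.14 in DC replicates 1 to 7, and 7.01, 7.19, 7.13, 7.01, 7.45, 7.97 and 8.69 in fresh replicates 1 to 7. In AML medium 4 of 7 arrays were above every other array, and replicates 3, 6 and 7 overlapped with fresh replicate 7. In DC and in fresh medium the highest values were those of replicates 6 and 7. The mean was 8.84 ± 0.58 in AML medium and 7.49 ± 0.63 in fresh medium (SD, n = 7 each), a log2 difference of 1.34 (SE 0.30, 95% interval 0.72 to 1.96, 2.54-fold, limma adjusted p = 0.0158).

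The promoter of *Lif*, the 1 of the 4 genes matched in the RefSeq promoter table (GRCm38.p6), is shown because *Lif* varied closely with *Osm* and *Il24*. The 250 bases before its annotated start, chr11:4257318-4257567 on the plus strand, read 5′ to 3′ as follows, with the match to the AP-1 motif in capitals.
*Lif* promoter: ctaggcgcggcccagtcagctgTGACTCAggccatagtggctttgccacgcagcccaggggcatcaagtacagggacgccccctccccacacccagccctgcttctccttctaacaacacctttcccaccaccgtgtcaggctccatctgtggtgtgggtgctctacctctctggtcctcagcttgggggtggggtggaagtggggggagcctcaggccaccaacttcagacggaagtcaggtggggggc
AP-1 is the FOS and JUN factor that T cell activation induces. Its motif TGANTCA, read on both strands, occurred 1 time, starting 228 bases before the annotated start, and 6.75% of all 32851 promoter windows of this length hold it. The STAT motif TTCNNNGAA, found in 7.02% of windows, and the cyclic AMP response element TGACGTCA, found in 1.55%, had no match in these 250 bases. A match of letters is a description of the sequence, and the motifs were chosen after the sequence was seen.

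*Il24* encodes a cytokine known in the mouse as a product of T helper 2 cells. Its log2 values were 5.51, 6.45, 4.98, 6.48, 6.75, 4.53 and 4.49 in AML replicates 1 to 7, 3.55, 4.48, 3.92, 3.91, 3.95, 4.51 and 4.75 in DC replicates 1 to 7, and 3.84, 4.04, 3.66, 3.94, 3.57, 3.98 and 5.01 in fresh replicates 1 to 7. Its AML arrays spread the most of the 4 genes, with an SD of 0.96 in AML medium, 0.43 in DC medium and 0.48 in fresh medium. AML replicates 1, 2, 4 and 5 were above all 14 other arrays. The mean was 5.599 in AML medium and 4.01 in fresh medium, a log2 difference of 1.59 (SE 0.31, 95% interval 0.96 to 2.23, 3.02-fold, limma adjusted p = 0.00614).

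*Il10* encodes the family's best known inhibitor of inflammation. Its log2 values were 3.64, 3.69, 3.73, 3.74, 3.32, 4.07 and 3.81 in AML replicates 1 to 7, 3.32, 4.08, 3.85, 3.73, 4.39, 4.07 and 4.15 in DC replicates 1 to 7, and 3.77, 3.73, 3.94, 3.56, 3.66, 3.75 and 3.89 in fresh replicates 1 to 7. All 21 arrays lay between 3.32 and 4.39, and the 3 groups overlapped. The AML minus fresh difference was -0.04 (SE 0.12, 95% interval -0.30 to 0.21, limma adjusted p = 0.920). The deposited values carry no detection call. The 25th percentile of all gene means was 3.67, close to the *Il10* means, and differences of weak transcripts are compressed on this scale.

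**Figure D1:**
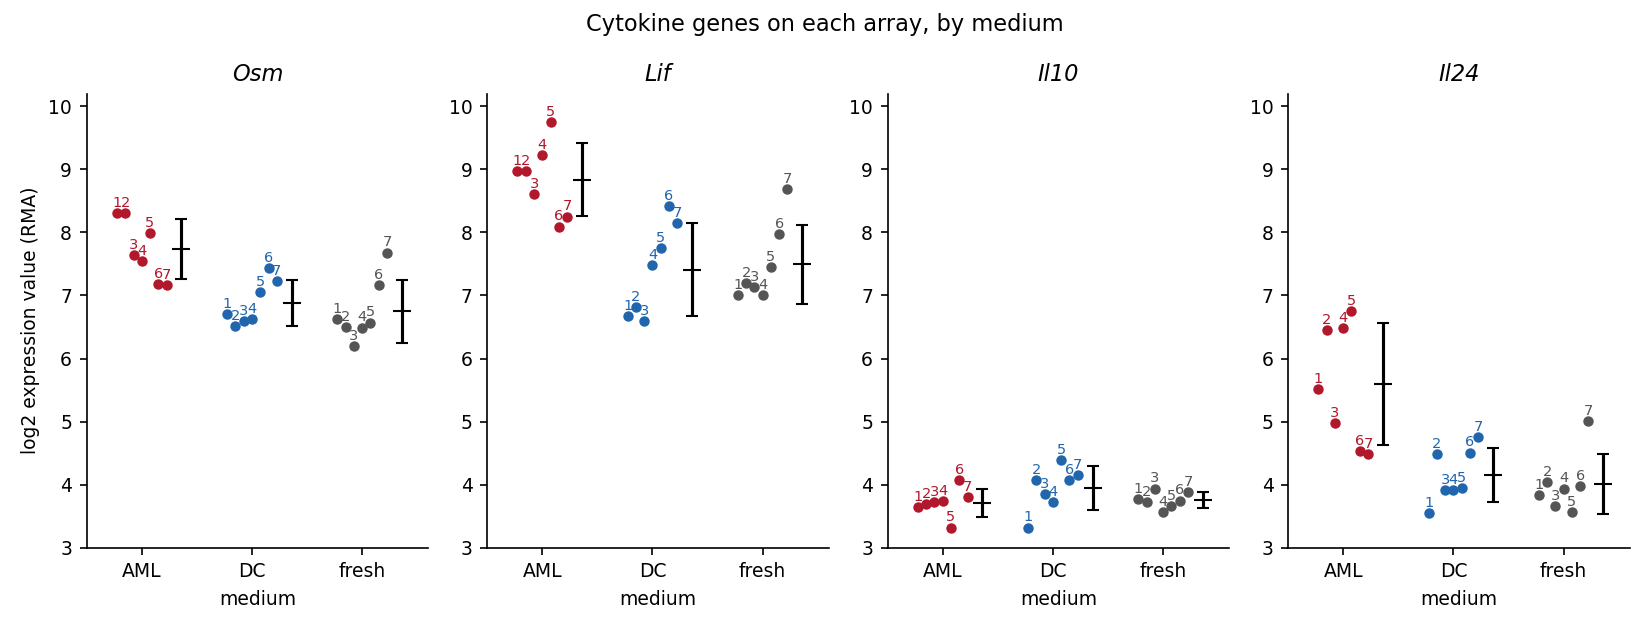
Log2 expression value (vertical axis) of each gene on each array, by medium; numbers are replicate numbers, and the bar to the right of each group is the mean with its SD (n = 7). AML replicates 1, 2 and 5 lie above all other media for *Osm*, and AML replicates 1, 2, 4 and 5 for *Lif* and *Il24*. AML replicates 3, 6 and 7 lie within the fresh range for these 3 genes, and *Il10* lies between 3.32 and 4.39 on all arrays.

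None of the 4 genes separated the media completely, since AML and fresh values overlapped for each; over all genes 0.795% did not overlap between these groups. The calls of *Osm*, *Lif* and *Il24* against fresh medium held without any 1 array. They ended when AML replicates 4 and 5 were both left out, where the differences were 0.97 for *Osm*, 1.08 for *Lif* and 1.19 for *Il24*, with limma adjusted p = 0.0638, 0.135 and 0.0553. That fit has fewer arrays, and no other pair of arrays was left out. In it the *Osm* difference hardly moved from 0.99, while that of *Lif* fell from 1.34 and that of *Il24* from 1.59. The cause of the lost calls was not tested. Within replicates 1 to 3 the AML minus fresh difference was 1.64 for *Osm*, 1.74 for *Lif*, -0.13 for *Il10* and 1.80 for *Il24*. Within replicates 4 to 7 it was 0.50, 1.05, 0.02 and 1.44 in the same order of genes, and none of these passed (adjusted p = 0.349 for *Osm*, 0.202 for *Lif*, 0.965 for *Il10* and 0.174 for *Il24*). The difference between these sets of replicates was not tested. By replicate number, which the labels do not pair, the AML minus fresh difference varied within replicates 4 to 7. For *Osm*, *Lif* and *Il24* it was 1.07, 2.20 and 2.54 at number 4 and 1.43, 2.30 and 3.18 at number 5. At number 6 it was 0.02, 0.12 and 0.55, and at number 7 it was below 0, at -0.52, -0.44 and -0.52.

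DC medium, which is conditioned by cells that are not leukaemic, was set against fresh medium to see what this conditioning does to these genes. None of the 4 was called, and their differences were small beside those in AML medium. *Osm* averaged 6.88 ± 0.36 in DC medium and 6.75 ± 0.50 in fresh medium (SD, n = 7 each), a log2 difference of 0.13 (95% interval -0.31 to 0.57). *Lif* averaged 7.41 ± 0.73 in DC medium against 7.49 ± 0.63 in fresh medium, a difference of -0.08 (95% interval -0.70 to 0.54). *Il24* averaged 4.15 in DC medium and 4.01 in fresh medium, a difference of 0.15 (95% interval -0.49 to 0.79). *Il10* averaged 3.94 in DC medium and 3.76 in fresh medium, a difference of 0.18 (95% interval -0.07 to 0.44), and 4 of 7 DC arrays were above all fresh arrays. The limma adjusted p-values ran from 0.863 for *Il10* to 0.981 for *Lif*. The fit called 0 of 19505 genes in this comparison (0% of those tested), and 1251 had an unadjusted p under 0.05. The intervals still allow a fold of up to 1.49 for *Osm*, 1.45 for *Lif* and 1.72 for *Il24*.

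AML and DC medium were then compared as conditioned media from different cells. Those cells differ in type as well as in leukaemia, and these cannot be told apart here. The same AML arrays serve in this comparison and in that with fresh medium. *Lif* was higher in AML than in DC medium by 1.43 on the log2 scale (SE 0.30, 2.69-fold, limma adjusted p = 0.0122), *Il24* by 1.45 (SE 0.31, 2.73-fold, adjusted p = 0.0128) and *Osm* by 0.86 (SE 0.21, 1.81-fold, adjusted p = 0.0289). For each of these genes 5 of 7 AML arrays were above every DC array, and the remaining AML arrays, replicates 6 and 7, overlapped with DC medium. These are 3 of 4 genes called higher, where 1.13% of all genes were called higher, 1.26% lower and 2.39% in either direction. *Il10* differed by -0.23 (95% interval -0.48 to 0.03, adjusted p = 0.428). Without AML replicates 4 and 5 the differences were 0.84 for *Osm*, 1.17 for *Lif* and 1.04 for *Il24*, and none passed (adjusted p = 0.135, 0.108 and 0.117). The *Osm* call also ended without any 1 of AML replicates 1, 2, 4 and 5 or DC replicates 1, 2, 3 and 4, at 0.76 to 0.89 (adjusted p = 0.0519 to 0.0761).

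By medium, the means of *Osm* and *Il24* were ordered AML, DC and fresh from high to low, those of *Lif* AML, fresh and DC, and those of *Il10* DC, fresh and AML. DC and fresh medium did not differ beyond the spread for any of the 4 genes, nor did any pair of media for *Il10*.

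**Figure D2:**
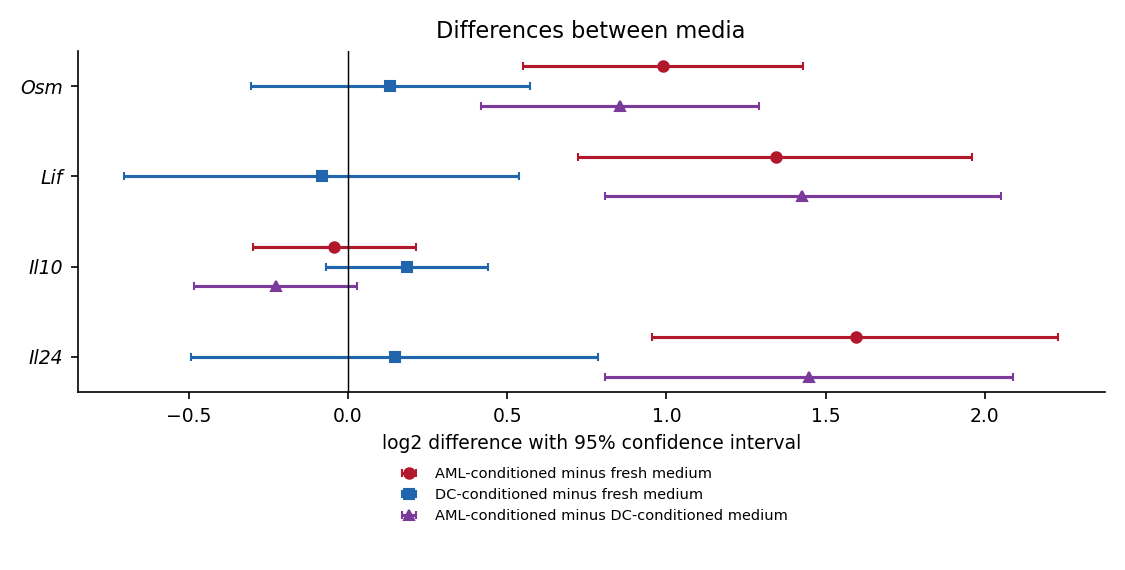
Log2 difference between 2 media (horizontal axis) with its 95% confidence interval from the limma fit for each gene; circles are AML minus fresh, squares DC minus fresh and triangles AML minus DC medium. The intervals of *Osm*, *Lif* and *Il24* exclude 0 in both comparisons with AML medium and include it for DC minus fresh, and the *Il10* intervals all include 0.

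*Osm*, *Lif* and *Il24* were correlated over the arrays of all media. Over the 21 arrays Pearson's r between *Osm* and *Lif* was 0.91 (Spearman's rho 0.88), between *Lif* and *Il24* 0.87 (rho 0.88) and between *Osm* and *Il24* 0.84 (rho 0.83). Without the 2 arrays farthest from the median of the first-named gene, r was 0.93, 0.85 and 0.81 for these pairs. After each group's mean was subtracted, it was 0.82, 0.73 and 0.66. These are descriptions without a test, since the genes were picked for how they behaved and the arrays share their normalization. Within single media, the 2 arrays farthest from the median of 1 gene were found separately in each medium. Within fresh medium the relation between *Osm* and *Lif* rested on replicates 6 and 7, with r = 0.94 over 7 arrays. It was 0.089 without the 2 fresh arrays farthest from the *Osm* median. Within AML medium r between *Lif* and *Il24* was 0.93, and 0.92 without the 2 AML arrays farthest from the *Lif* median. For the same pair r was 0.61 in DC medium and 0.50 without the 2 DC arrays so chosen. In fresh medium it was 0.81, and -0.59 without the 2 fresh arrays so chosen. For *Osm* and *Il24* r was 0.67 in AML medium, 0.52 in DC medium and 0.85 in fresh medium. Without the 2 arrays of each medium farthest from the *Osm* median it was 0.83, -0.36 and 0.24. Within single media several of these relations thus rested on 2 arrays. *Il10* did not follow them over the 21 arrays, with r between -0.22 and -0.12. Its relation to *Lif* had opposite signs within media. It was r = -0.90 over the 7 AML arrays (rho -0.79, and r = -0.64 without the 2 AML arrays farthest from the *Lif* median). Over the 7 DC arrays r was 0.57 (rho 0.54, and r = 0.64 without the 2 DC arrays so chosen).

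**Figure D3:**
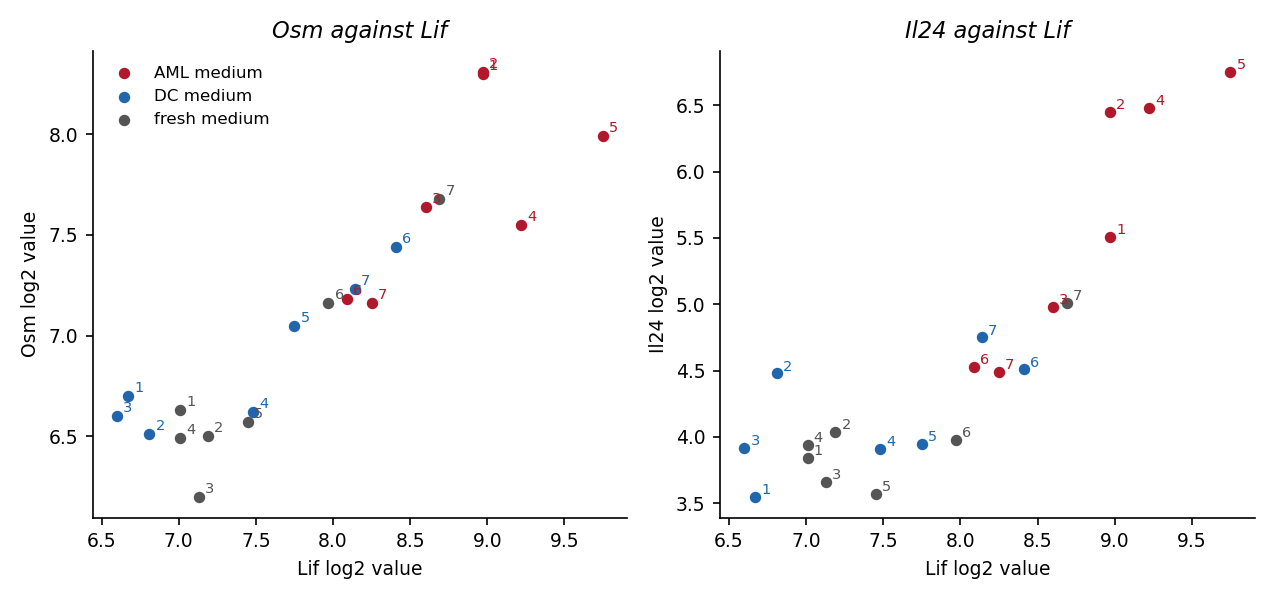
*Osm* (left) and *Il24* (right) against *Lif*, all as log2 values, with 1 point per array coloured by medium and numbered by replicate. AML replicates 1, 2, 4 and 5 have the highest *Lif* values, and replicates 6 and 7 of all 3 media and AML replicate 3 lie between 7.97 and 8.69.

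Across all named genes, the pattern most like that of *Lif* was that of *Tnf*, which encodes tumour necrosis factor, with Pearson's r = 0.983 over 21 arrays. *Cish*, a feedback inhibitor of cytokine signalling (r = 0.969), *Lta*, which encodes lymphotoxin alpha (0.946), *Bcl2l1*, which encodes the survival factor BCL-xL (0.940), and *Socs2*, another feedback inhibitor (0.935), came next. For *Osm* the 5 most alike were *Lif* (0.906), *Rnf19b*, a ubiquitin ligase gene (0.903), *Tnf* (0.898), *Cish* (0.885) and the transcription factor gene *Myc* (0.883). For *Il24* they were *Lta* (0.931), the chemokine receptor gene *Ccr8* (0.923), the transcription factor gene *Eomes* (0.904), *Cish* (0.900) and *Chac1*, a glutathione-degrading enzyme gene (0.898). *Cish* was thus among the 5 for each of *Osm*, *Lif* and *Il24* before the group means were subtracted. After they were subtracted, *Tnf* (r = 0.962) and *Cish* (0.954) also led for *Lif*, so their likeness to *Lif* was present among arrays of the same medium. *Cish* was then not among the 5 for *Osm* or for *Il24*. Of the genes named above, *Lif*, *Tnf* and *Rnf19b* stayed among the 5 for *Osm*, and *Lta* and *Ccr8* among those for *Il24*. *Il10* was less like any gene, with *Dnajc18*, a cochaperone gene, first at 0.778.

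No other ligand of these families passed the test between AML and fresh medium. Of 10 measured IL-6 family ligands *Osm* and *Lif* were called, and of the other 8 the limma fit called 0, with 0 at an unadjusted p under 0.05, and AML minus fresh differences of -0.07 to 0.24. *Il6* itself had a log2 level of 2.61 ± 0.15 in AML medium and 2.56 ± 0.13 in fresh medium (SD, n = 7 each), and *Il11*, a cytokine of the same family, 3.77 ± 0.10 and 3.78 ± 0.24. *Clcf1*, which encodes a ligand of the ciliary neurotrophic factor receptor, came nearest, at 7.73 ± 0.36 in AML medium, 7.30 ± 0.17 in DC medium and 7.49 ± 0.13 in fresh medium. It differed by 0.24 from fresh medium (adjusted p = 0.338) and by 0.43 from DC medium (adjusted p = 0.0519). The remaining IL-6 family ligands were *Il27*, *Ebi3*, *Ctf1*, *Ctf2* and *Il31*. Of 8 IL-10 family ligands *Il24* was called. The other 7 included *Il10*; the 6 beside it, *Il19*, *Il20*, *Il22*, *Iltifb*, *Ifnl2* and *Ifnl3*, differed by -0.20 to 0.14, with 0 called and 0 at an unadjusted p under 0.05. The medians of both ligand lists, 0.05 and 0.03, lay close to that of all genes, -0.014.

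Among the receptor chains, 1 gene rose. *Il6ra* encodes the receptor chain that binds IL-6 itself and had log2 values of 7.86, 7.58, 8.06, 7.77, 7.58, 7.51 and 7.49 in AML replicates 1 to 7, 7.35, 7.30, 7.30, 6.41, 6.51, 6.58 and 6.20 in DC replicates 1 to 7, and 6.76, 6.86, 7.00, 7.21, 7.09, 6.53 and 6.88 in fresh replicates 1 to 7. All 7 AML arrays, replicates 6 and 7 included, lay above all 14 others. Over all genes, 0.795% did not overlap between AML and fresh medium and 0.815% between AML and DC medium. The AML minus fresh difference was 0.79 (SE 0.16, 1.73-fold, limma adjusted p = 0.00831) and the AML minus DC difference 0.89 (SE 0.16, 1.85-fold, adjusted p = 0.00421). Unlike those of the cytokine genes, these calls held without AML replicates 4 and 5. The call against fresh medium ended within replicates 4 to 7 alone (0.66, adjusted p = 0.0800), and that against DC medium within replicates 1 to 3 alone (0.52, adjusted p = 0.0643). Among 7 IL-6 family receptor chains *Il6ra* was the 1 called against fresh medium, where 1.30% of all genes were called higher and 1.48% lower. An unadjusted p under 0.05 was found for 4 of the 7, beside 3100 of all 19505 genes, and 1 of those 4, *Cntfr*, was lower in AML medium (-0.14, adjusted p = 0.313).

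The receptor chains through which these cytokines act did not pass. *Osmr*, the specific chain for oncostatin M, had a log2 level of 4.67 ± 0.10 in AML medium, 4.66 ± 0.08 in DC medium and 4.66 ± 0.19 in fresh medium (SD, n = 7 each). *Lifr*, the specific chain for LIF, was at 3.41 ± 0.24 in AML medium, 3.54 ± 0.16 in DC medium and 3.53 ± 0.19 in fresh medium. *Il6st*, which encodes the shared chain gp130, was at 9.99 ± 0.11 in AML medium and 9.74 ± 0.09 in fresh medium, a difference of 0.25 (adjusted p = 0.153). The IL-10 receptor chains *Il10ra* and *Il10rb* were at 9.74 ± 0.12 and 9.74 ± 0.16 in AML medium and at 9.81 ± 0.13 and 9.77 ± 0.14 in fresh medium. Of the chains used by IL-24, *Il20ra* was at 2.62 ± 0.19 in AML medium and 2.50 ± 0.09 in fresh medium, *Il22ra1* at 3.52 ± 0.22 and 3.55 ± 0.17, and *Il20rb* at 6.13 ± 0.44 and 6.38 ± 0.20. None of the 7 IL-10 family receptor chains was called by limma between AML and fresh medium (0 at an unadjusted p under 0.05), and their differences ran from -0.25 to 0.12.

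**Figure D4:**
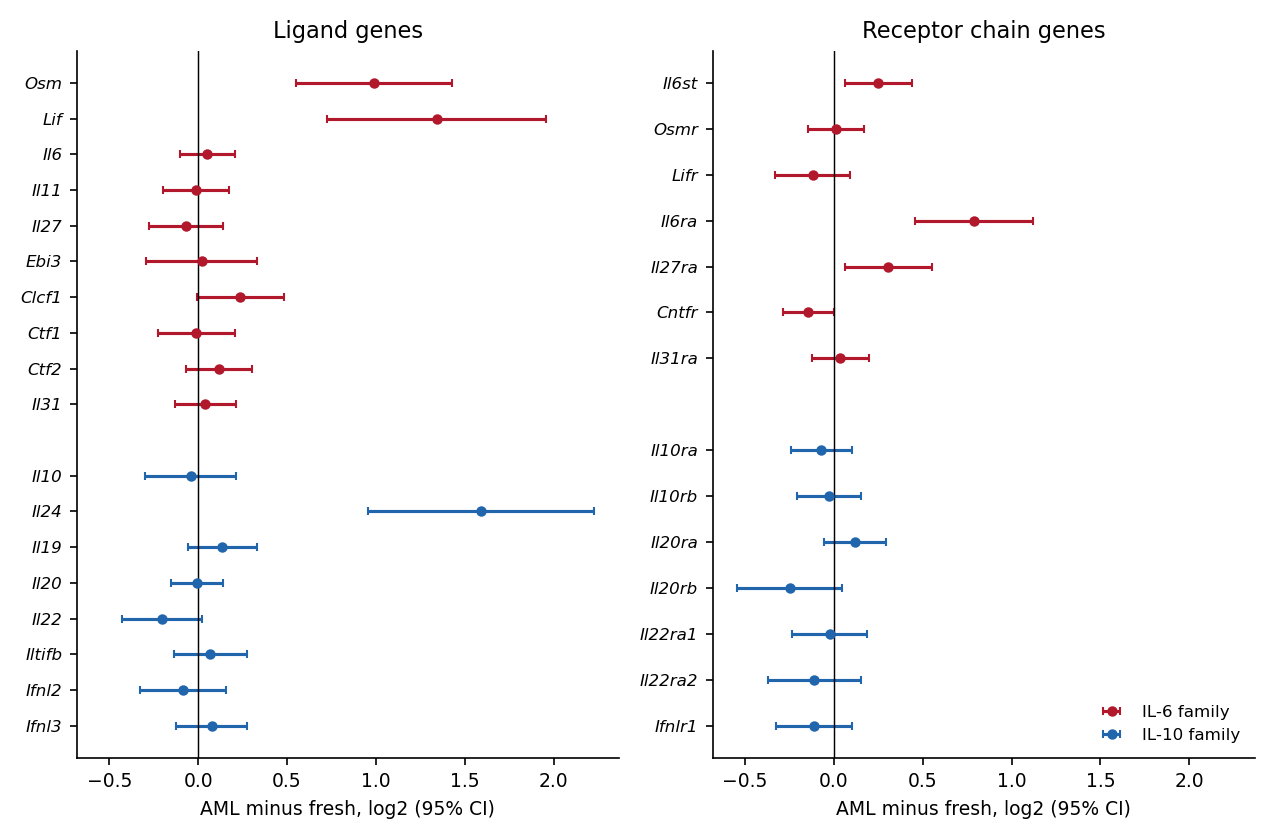
AML minus fresh log2 difference (horizontal axis) with its 95% confidence interval for each measured ligand gene (left) and receptor chain gene (right), IL-6 family in red and IL-10 family in blue. *Osm*, *Lif* and *Il24* stand apart among the ligands, at 0.99, 1.34 and 1.59, and *Il6ra* among the receptor chains, at 0.79.

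Known STAT3 targets were read next. Of 15 measured STAT3 targets and inhibitors 1 rose after AML medium, *Bcl2l1* (0.62, SE 0.15, limma adjusted p = 0.0264), and none fell, with 4 at an unadjusted p under 0.05 and a median difference of 0.01. Of all 19505 genes, 1.30% were called higher between AML and fresh medium, 1.48% were called lower, and 3100 had an unadjusted p under 0.05. *Socs3*, the feedback inhibitor that STAT3 induces, averaged 6.70 in AML medium and 6.61 in fresh medium, a difference of 0.09 (adjusted p = 0.791). Against DC medium *Socs3* differed by 0.35 (limma adjusted p = 0.162), with 6 of 7 AML arrays above every DC array. In that comparison limma called 0 of the 15 genes, with a median difference of 0.12. There 7 of the 15 had an unadjusted p under 0.05, beside 2782 of all 19505 genes. Among those 7, *Batf* (-0.20) and *Hif1a* (-0.28) were lower in AML medium. *Stat3* itself averaged 9.31 in AML medium and 9.44 in fresh medium (difference -0.13, adjusted p = 0.452). Of 9 JAK and STAT genes *Stat2*, a mediator of type I interferon signals, was called between AML and fresh medium, at 0.34 (adjusted p = 0.0146). It was also the 1 of the 9 with an unadjusted p under 0.05. The *Bcl2l1* call ended without any 1 of AML replicates 4 and 5 and fresh replicates 1, 4 and 5 (0.52 to 0.59, adjusted p = 0.0536 to 0.0767), and without both AML replicates 4 and 5 (0.44, adjusted p = 0.207).

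STAT5 is the factor that interleukin 2 activates in T cells, and *Osm* is known in the mouse as one of its targets. In a list of 12 other STAT5 targets 4 rose after AML medium and none fell, with a median difference of 0.46 beside -0.014 over all genes. Of all genes tested, 1.30% were called higher in this comparison and 1.48% lower. The 4 were *Ccr8* (2.16, adjusted p = 0.00104), *Cish* (1.75, adjusted p = 0.00324), *Lta* (1.24, adjusted p = 0.0146) and the inhibitor gene *Socs1* (0.39, adjusted p = 0.0256), and 8 of the 12 had an unadjusted p under 0.05, as did 3100 of all 19505 genes. Some of these genes had been seen to rise before the list was drawn up, so the count is a description. Without AML replicates 4 and 5 the calls of *Lta* (0.83, adjusted p = 0.110) and *Socs1* (0.34, adjusted p = 0.141) ended. The *Socs1* call also ended without any 1 of AML replicates 2 and 5 and fresh replicates 3 and 6 (0.34 to 0.37, adjusted p = 0.0506 to 0.0767).

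Among 11 transcription factor genes with a known role in *Il10* expression, 1 rose and 1 fell after AML medium while *Il10* did not pass. Over all genes 1.30% were called higher and 1.48% lower. Of the 11, 6 had an unadjusted p under 0.05, beside 3100 of all 19505 genes, and the median difference was 0.06. The uncalled genes among these 6 were *Egr2* (0.75, limma adjusted p = 0.0551), *Ahr* (0.27), *Bhlhe40* (-0.37) and *Batf* (-0.21). *Eomes*, a T-box factor of CD8+ T cells, rose by 0.71 (SE 0.14, limma adjusted p = 0.00844). *Prdm1*, which encodes the factor Blimp-1, an activator of *Il10* in T cells, had a lower log2 level in AML medium, with a difference of -1.27 (SE 0.32, limma adjusted p = 0.0322). Its values were 4.45, 4.97, 4.27, 2.86, 2.92, 5.42 and 4.98 in AML replicates 1 to 7 and 4.96, 5.74, 5.39, 5.42, 5.54, 6.00 and 5.69 in fresh replicates 1 to 7. The lowest were AML replicates 4 and 5, without which neither gene passed (*Eomes* 0.50, adjusted p = 0.0705; *Prdm1* -0.72, adjusted p = 0.198). The *Prdm1* call also ended without any 1 of AML replicates 3, 4 and 5 and fresh replicates 2, 4, 5, 6 and 7 (-1.29 to -1.03, adjusted p = 0.0506 to 0.0890). *Maf*, another activator of *Il10*, averaged 4.95 in AML medium and 4.89 in fresh medium. Within replicates 4 to 7 alone, the calls of *Bcl2l1*, *Stat2*, *Ccr8*, *Cish*, *Lta*, *Socs1*, *Eomes* and *Prdm1* did not pass (adjusted p = 0.128 to 0.260). The differences there were 0.65, 0.20, 1.83, 1.61, 1.24, 0.32, 0.68 and -1.62 in this order of genes, in a fit with 4 arrays a group, so that of *Stat2* was smaller than over all arrays and that of *Prdm1* larger in size.

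Position on the chromosome was then set beside the values, because the 4 genes form 2 pairs. Gene order is that of the RefSeq annotation of mouse assembly GRCm38.p6. On chromosome 11 *Osm* and *Lif* are adjacent measured genes, and *Castor1*, *Tbc1d10a*, *Sf3a1* and *Ccdc157* lie on one side and *Hormad2*, *Mtmr3*, *Ascc2* and *Uqcr10* on the other. *Castor1*, an arginine sensor gene next to *Osm*, differed by 0.37 between AML and fresh medium (limma adjusted p = 0.108), and *Hormad2*, next to *Lif*, by 0.10 (adjusted p = 0.732). On chromosome 1 the order is *Il24*, *Il20*, *Il19* and *Il10*. Between *Il24*, at 1.59, and *Il10*, at -0.04, *Il20* differed by -0.0049 (adjusted p = 0.985) and *Il19* by 0.14 (adjusted p = 0.523). On the other side of *Il24*, *Fcmr*, which encodes a receptor for immunoglobulin M, averaged 5.54 in AML medium, 5.15 in DC medium and 5.20 in fresh medium. It differed by 0.34 from fresh medium (adjusted p = 0.0514) and by 0.39 from DC medium (adjusted p = 0.0256). That call ended without any 1 of AML replicates 1 to 5 and DC replicates 3, 6 and 7 (0.35 to 0.38, adjusted p = 0.0510 to 0.0672). Over the 18 neighbours of the 4 genes limma called 0 between AML and fresh medium, 5 had an unadjusted p under 0.05 (3100 of all 19505 genes had), and differences ran from -0.18 to 0.37.

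**Figure D5:**
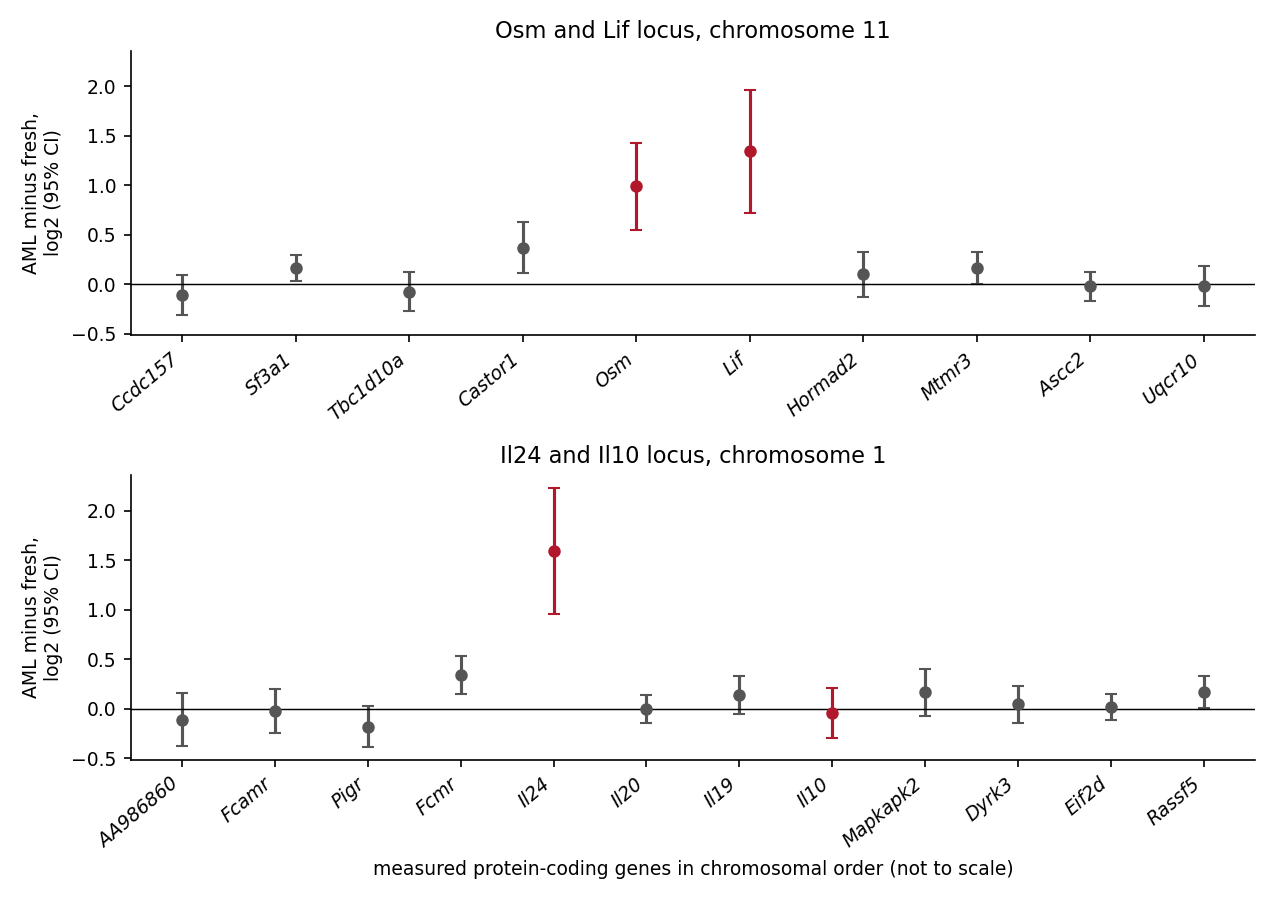
AML minus fresh log2 difference (vertical axis) with its 95% confidence interval for measured protein-coding genes in chromosomal order (horizontal axis, not to scale) around *Osm* and *Lif* (top) and around *Il24* and *Il10* (bottom), with those 4 genes in red. *Osm* and *Lif* stand side by side above their neighbours, while *Il24* at 1.59 stands 3 genes away from *Il10* at -0.04.

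Markers of other cells that make these cytokines were read on the same arrays. Macrophages and other myeloid cells are known sources of oncostatin M and IL-10. Of 10 myeloid markers, among them *Lyz2*, *Csf1r* and *Cd14*, limma called 0 between AML and fresh medium (1 at an unadjusted p under 0.05). Their summed log2 level was 38.12 to 40.24 in AML arrays, 38.64 to 40.74 in DC arrays and 38.14 to 40.60 in fresh arrays, and the means of single markers were 2.77 to 5.13 in AML medium and 2.69 to 5.15 in fresh medium. Sums overlapped likewise for 7 dendritic cell markers, at 26.08 to 27.65, 25.52 to 28.17 and 25.73 to 27.27, and for 4 B cell markers, at 18.06 to 19.37, 17.67 to 19.16 and 18.13 to 20.31, in AML, DC and fresh arrays. Of 3 natural killer cell markers *Eomes* rose, which CD8+ T cells also express, and *Ncr1* and *Klrb1c* did not pass. An unadjusted p under 0.05 was found for 2 of the 3, *Eomes* and *Klrb1c* (0.20, limma adjusted p = 0.289). The summed level of the 3, *Eomes* included, was 14.94 to 16.37 in AML arrays, 14.45 to 15.41 in DC arrays and 14.55 to 15.21 in fresh arrays. CD4+ T cells are a known source of *Il24* and *Lif*. *Cd4* was higher in AML medium, at 8.56 ± 0.43, than in fresh medium, at 7.77 ± 0.31 (SD, n = 7 each; difference 0.79, adjusted p = 0.0150, and 0.81 with adjusted p = 0.0622 without AML replicates 4 and 5). The summed level of 3 CD4+ T cell markers, *Cd4*, *Zbtb7b* and *Cd40lg*, was 19.17 to 20.97 in AML arrays, 18.52 to 20.26 in DC arrays and 18.07 to 19.67 in fresh arrays. *Zbtb7b* was higher than in fresh medium by 0.17 (limma adjusted p = 0.304) and *Cd40lg* by 0.31 (adjusted p = 0.288). Each of the 3 had an unadjusted p under 0.05 against fresh medium, and also against DC medium, where 0 were called. Over all 19505 genes 3100 and 2782 had one in these comparisons. The summed level of 4 regulatory T cell markers was 34.34 to 37.52 in AML arrays, above 33.13 to 34.04 in DC arrays and 33.25 to 34.21 in fresh arrays. Between AML and fresh medium 2 of the 4 had an unadjusted p under 0.05. The limma fit called 1, *Gpr83* (1.42, adjusted p = 0.0293), where 1.30% of all genes were called higher and 1.48% lower. The others did not move alike: *Il2ra*, which activated T cells also express, differed by 0.53 from fresh medium (adjusted p = 0.0725), *Ikzf2* by 0.09 (adjusted p = 0.828) and *Ctla4* by -0.20 (adjusted p = 0.445). *Foxp3* was not analysed here. The part of CD4+ T cells, regulatory T cells and natural killer cells in the cytokine values was not tested.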

How the data were processed

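The authors deposited log2 values, 1 for each transcript cluster of a 1-colour Affymetrix array. The submitters' processing notes name RMA and the package oligo, and versions are not given in the sources used here. RMA includes background correction and quantile normalization between arrays, and no detection call comes with its values. Of 22203 transcript clusters, 19572 had 1 gene symbol in the platform annotation, 0 had several and 2631 had none. Where a symbol had more than 1 cluster (55 symbols), the brightest by mean over 21 arrays was kept, which left 19505 genes, with no filter on level. Groups follow the sample titles.

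Media were compared with limma 3.58.1 in R 4.3.3, in 1 fit over all 21 arrays without covariates, two-sided, with Benjamini-Hochberg adjustment over the 19505 genes and a threshold of 0.05. The groups share 1 estimate of the spread per gene. The fit was first tested on simulated data. Gene lists are described by counts and medians, without a test of their own. The 4 genes, the lists and the alternatives were chosen with earlier results of these data known. Genes named beside the 4 were list members, the 5 most correlated named genes for each of the 4, and the 4 nearest measured protein-coding genes on each side. The labels do not pair the replicate numbers, and not every same-numbered pair of arrays deviated together. The alternatives were a replicate block, other normalizations, a filter on low values, other variance models, subsets of replicates and leaving out each array.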

Additional observations from a re-analysis of the deposited data

Results flagged for a closer look

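In 12 sets of 7 arrays (4 genes in 3 media), 1 array stood far from its group, and chance alone flags about 1 in 20 such sets. *Il24* in fresh replicate 7 was at 5.008, with the next fresh array at 4.043 and a gap of 0.669 of the group's range, above Dixon's 95% critical value. The same array held the highest fresh value of *Osm* (7.68) and *Lif* (8.69), with gaps of 0.352 and 0.429 of the range, below that value.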

How the results depend on the processing

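Each result was recomputed under 34 alternatives. The AML minus fresh differences of *Osm*, *Lif* and *Il24* kept their sign in all and their call in 32. Their calls ended in replicates 4 to 7 alone (0.50, 1.045 and 1.438) and without AML replicates 4 and 5 (0.974, 1.083 and 1.189). AML minus DC, the calls ended under the same 2 settings (0.388, 0.879 and 1.283, then 0.840, 1.166 and 1.042). The *Osm* call AML minus DC ended in 11 of the 34 alternatives. Beside these 2 settings, they were trend and robust estimation (0.856, limma adjusted p = 0.0534) and leaving out any 1 of 8 arrays (adjusted p = 0.0519 to 0.0761). Leaving out 1 array gave 0.893 to 1.145 for *Osm*, 1.190 to 1.543 for *Lif*, 1.403 to 1.778 for *Il24* and -0.101 to 0.024 for *Il10* against fresh medium, and 0.760 to 0.951 for *Osm* against DC medium. Uncalled differences near 0 changed sign: *Il10* AML minus fresh in replicates 4 to 7 (0.020) and without AML replicates 4 and 5 (0.031), *Il10* DC minus fresh in replicates 1 to 3 (-0.062), and *Lif* DC minus fresh in replicates 4 to 7 (0.166) and over single arrays left out (-0.249 to 0.117). The cause was not tested.

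Genes called AML against fresh numbered 541 in the reported fit, 1012 with the replicate block, 1026 with a block for replicates 1 to 3 against 4 to 7, 32 in replicates 4 to 7, 246 with the 2 groups alone, 111 without AML replicates 4 and 5, and 218 to 776 without 1 array (249 without AML replicate 4, 218 without AML 5, 299 without fresh 2 and 341 without fresh 4). AML against DC they numbered 466, then 784, 797, 43, 249 and 92 under the same settings, and 220 to 784 without 1 array (220 without AML replicate 4, 242 without AML 5, 784 without AML 6, 308 without DC 4 and 289 without DC 7). DC against fresh they numbered 0, then 1 with either block, as a random effect or without AML replicates 4 and 5, 2 with array weights, and 0 to 2 without 1 array. Centring arrays on their medians gave 289 higher and 197 lower calls AML against fresh, where the reported fit gave 253 and 288.

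The replicate number as a block changed no call of the 4 genes. Same-numbered AML and fresh arrays deviated from their group means with correlations of -0.109 to 0.210, 3 of 7 above 0.1, and 4 of 7 AML arrays correlated best with their own number. The correlations were 0.0407 to 0.364 between DC and fresh arrays (6 of 7 above 0.1) and 0.0735 to 0.271 between AML and DC arrays (4 of 7). Of the DC arrays, 2 of 7 correlated best with the fresh array of their own number, and of the AML arrays 4 of 7 with that DC array. As the labels do not pair the numbers and not every pair passed 0.1 in any comparison, they were not taken as pairs. The values do not settle whether equal numbers share a mouse or a day. Low values, as for *Il10*, lie where RMA compresses differences.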

Other observations

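*Il6ra* and *Il6st*, which encode the IL-6 receptor chain and the shared chain gp130, split the DC arrays by replicate number. In DC replicates 1 to 3 *Il6ra* was at 7.35, 7.30 and 7.30, and in DC replicates 4 to 7 at 6.41, 6.51, 6.58 and 6.20. *Il6st* was at 10.02, 10.01 and 10.09 in DC replicates 1 to 3 and at 9.71, 9.51, 9.45 and 9.61 in DC replicates 4 to 7. In fresh medium the same genes showed no such division, with *Il6ra* at 6.76 to 7.00 in replicates 1 to 3 and 6.53 to 7.21 in replicates 4 to 7, and *Il6st* at 9.66 to 9.85 and 9.66 to 9.87. For *Lif* the DC arrays divided the other way, with 6.60 to 6.81 in replicates 1 to 3 and 7.48 to 8.41 in replicates 4 to 7. Such a division of the DC arrays was not particular to these genes. *Cd4* was at 8.20 to 8.57 in DC replicates 1 to 3 and at 7.56 to 7.92 in DC replicates 4 to 7. *Eomes* was at 8.60 to 8.64 and 8.25 to 8.52, and *Bcl2l1* at 7.77 to 7.85 and 8.16 to 8.35. The gene *Ikbke* divided in DC medium, at 9.21 to 9.30 and 8.53 to 8.90. It also divided in fresh medium, at 9.15 to 9.36 in replicates 1 to 3 and 8.72 to 9.05 in replicates 4 to 7. For *Socs3* and *Ccr8* the 2 sets of DC arrays overlapped. These divisions were seen in the values of a few picked genes and were not tested. The share of all genes with such a division was not computed.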
